A study of Rattus norvegicus with 8 samples.

Results

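The constitutive proteasome subunit genes were described in the hypothalamus of rats injected with retinoic acid (RA) or vehicle. They were taken as every gene whose rat symbol starts with *Psma*, *Psmb*, *Psmc* or *Psmd* followed by a number, with the inducible *Psmb8*, *Psmb9* and *Psmb10* left out. There were 35 such genes with a probe among 15159 named genes on the array, each represented by its brightest probe. Of the 35, 15 encode the core particle and 19 belong to the regulatory particle, in which the symbol rule also placed 3 assembly chaperones (*Psmd5*, *Psmd9* and *Psmd10*). The remaining gene, *Psmc3ip*, fits the rule by its symbol but encodes no subunit of the proteasome. Its product is a factor of meiotic recombination. A further 5 of the 40 protein-coding symbols that fit the rule had no matched probe, among them the lid subunit *Psmd11* and the thymic subunit *Psmb11*.

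All rats were male F344 (F344N in the labels) held in a short-day photoperiod (SD), carried a cannula into the third ventricle and had been given angiotensin to test its placement. RA-injected rats received all-trans RA through the cannula and control rats received the vehicle, and hypothalamic blocks including the arcuate nuclei were taken a day later. The labels give the RA as 1e-05 M and the control as saline, whereas the study's methods give a higher RA concentration for these rats and name DMSO in saline as the vehicle. RNA of 4 RA-injected and 4 vehicle-injected rats was hybridised with dye-swap to 8 dual-colour arrays, RA being in Cy5 on arrays 1, 3, 6 and 8 and in Cy3 on arrays 2, 4, 5 and 7. Neither the labels nor the methods state which arrays share RNA. A p-value from limma here therefore measures the spread between means of 4 pairs of arrays, part of which may be technical. Every value below is a log2 ratio of RA over vehicle unless another quantity is named, so that 0 is no difference and 1 is a doubling.

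The proteasome degrades proteins that carry ubiquitin. Its core is a barrel of alpha rings, which gate the entrance, around beta rings, which hold the proteolytic sites. The regulatory particle caps the barrel, with a base of ATPases that unfold substrates and a lid that removes ubiquitin. In cells exposed to interferon, 3 catalytic beta subunits can be replaced by the inducible *Psmb8*, *Psmb9* and *Psmb10*, and constitutive subunit genes are known for being raised together by the transcription factor encoded by *Nfe2l1* when proteasome activity falls short.

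The promoters of these genes were read from RefSeq to show what the family shares in sequence. A promoter of 300 bases around the annotated start was held by 31 of the 35 genes. The core of the antioxidant response element, TGANNNNGC on either strand, was found in 19 of the 31 (61.3%) and in 40.5% of all 33469 promoters of that length. CCAAT was found in 17 (54.8%), against 37.5% of all promoters. The core of the interferon response element, GAAA followed by 2 bases of any kind and another GAAA, was found in *Psma4*, *Psmb3* and *Psmd7*, 3 of 31 (9.68%) against 3.92% of all promoters. Among the 5 inducible and PA28 genes it was found in *Psmb8*, *Psmb10* and *Psme2*. These are matches of letters and not evidence of binding. The promoters of *Psmd9* and *Psma4* are shown because these were the subunit-family genes with the lowest p-values, and those of *Psmb5* and *Psmb8* because the pair supplies the constitutive and the inducible subunit of 1 catalytic site, a choice made after the values were seen. Capitals mark the matches, and a match on the opposite strand appears as its reverse complement.
Psmd9 (GRCr8, chr12:39018215-39018514, minus strand, antioxidant response element cores and CCAAT): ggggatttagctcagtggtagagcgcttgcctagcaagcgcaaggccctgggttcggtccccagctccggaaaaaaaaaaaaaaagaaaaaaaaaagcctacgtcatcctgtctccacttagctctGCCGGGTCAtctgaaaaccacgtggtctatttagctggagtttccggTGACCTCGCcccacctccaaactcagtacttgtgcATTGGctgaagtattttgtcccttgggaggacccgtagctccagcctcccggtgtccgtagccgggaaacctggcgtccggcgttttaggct
Psma4 (GRCr8, chr8:64236270-64236569, plus strand, interferon response element core and CCAAT): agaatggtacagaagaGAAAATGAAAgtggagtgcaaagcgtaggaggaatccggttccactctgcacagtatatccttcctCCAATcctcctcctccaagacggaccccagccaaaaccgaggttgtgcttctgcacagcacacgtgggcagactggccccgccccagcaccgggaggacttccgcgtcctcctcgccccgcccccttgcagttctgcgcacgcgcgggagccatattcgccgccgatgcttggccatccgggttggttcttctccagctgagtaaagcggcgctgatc
Psmb5 (GRCr8, chr15:32047330-32047629, minus strand, antioxidant response element core): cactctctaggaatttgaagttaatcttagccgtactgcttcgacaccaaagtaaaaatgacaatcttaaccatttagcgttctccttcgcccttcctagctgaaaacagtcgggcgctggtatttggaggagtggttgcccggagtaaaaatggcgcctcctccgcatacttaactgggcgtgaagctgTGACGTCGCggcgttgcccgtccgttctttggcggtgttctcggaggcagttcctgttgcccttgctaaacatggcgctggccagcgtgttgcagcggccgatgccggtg
Psmb8 (GRCr8, chr20:4656982-4657281, minus strand, interferon response element core and CCAAT): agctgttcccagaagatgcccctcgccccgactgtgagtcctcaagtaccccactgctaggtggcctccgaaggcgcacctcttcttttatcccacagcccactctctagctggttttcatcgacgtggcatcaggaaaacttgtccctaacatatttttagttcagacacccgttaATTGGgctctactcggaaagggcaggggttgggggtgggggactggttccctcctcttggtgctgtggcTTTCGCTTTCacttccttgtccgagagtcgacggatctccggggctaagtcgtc

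The tissue label was checked first. Of 18 hypothalamic marker genes 17 had a probe, and 13 of these were detected clearly in both channels on every array. *Nr5a1*, *Otp*, *Kiss1* and *Rax* were not. Pairs of arrays with opposite dyes stood apart in tissue markers. The median of 10 choroid plexus markers was −1.43 on array 6 and −1.59 on array 7. It lay between 0.078 and 0.59 on the other arrays. *Agrp*, *Pomc*, *Hcrt* and *Pmch* were between −1.30 and −1.01 on arrays 5 and 8. There *Crh* went the other way (0.84 and 0.93), as did *Gnrh1* (0.15 and 0.50). Of the 17 hypothalamic markers, 4 were above 0 on array 5 and 2 on array 8, with medians of −0.28 and −0.19. The medians of 8 microglia and macrophage markers were 0.28 to 0.58 on arrays 1 to 4. They were 1.10 to 1.38 on arrays 5 to 8, which lay in the other row of the slide. Those of 8 reactive astrocyte markers were 0.51 to 0.78 and 1.60 to 2.33. At an unadjusted p under 0.01 in limma, 6 of 8 and 7 of 8 were called higher, against 3.52% of all named genes. All 6 oligodendrocyte markers had means below 0. None of them was called, but 4 were lower at an unadjusted p under 0.05, against 4.57% of named genes. The medians of these 6 markers by array lay between −0.38 and 0.075. In tissue blocks, fewer cells of a type and less RNA per cell cannot be told apart. The choroid plexus marker *Ttr* was 1.76 and 1.74 on arrays 1 and 2, and 0.73 and 0.57 on arrays 3 and 4. It was 1.21 and 1.37 on arrays 5 and 8, and −4.48 and −5.11 on arrays 6 and 7. Of the 24 pairings of arrays with opposite dyes, this one gave the fewest probes at an unadjusted p under 0.01 in limma (1081). Whether arrays of such a pair share RNA was not tested.

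None of the constitutive proteasome genes passed the test for a difference between RA and vehicle. At an unadjusted p under 0.01 in limma, 0 of 35 genes were called, whereas 4.31% of the 15159 named genes were called, 3.52% higher and 0.792% lower. Over all 30367 probes the share was 3.25%, and over the 9463 named genes with clear signal in both channels throughout it was 5.76%, 4.61% higher and 1.15% lower. At an unadjusted p under 0.05 there were 4 of 35, namely *Psmd9*, *Psma4* and *Psmc3ip* with positive and *Psmc5* with negative values, against 13.1% of named genes (8.48% higher and 4.57% lower). No named gene had an adjusted p under 0.05 (0 of 15159). The 35 mean ratios lay between −0.11 and 0.20, with a median of 0.011 against −0.0047 over all named genes. Their median size was 0.052, and that of all named genes 0.053. None of the 35 was above 0 on all 8 arrays or below 0 on all 8, which held for 4.07% and 1.8% of named genes.

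How large a difference could have gone unseen was read from the intervals. For the 30 genes that encode constitutive subunits proper, without *Psma8* and the chaperones, all 95% intervals from limma lay between −0.22 and 0.23, and SE values were 0.044 to 0.069. The interval of *Psmd9* reached 0.37 (1.29-fold). The bounds of −0.22 and 0.23 are the outermost limits of the 30 intervals and not a limit of detection. Intervals of the 35 genes reached 0.10 to 0.17 to either side of the mean, and 31 of 35 included 0. Of the 35 probes, 34 stood well above background in either channel of every array. The exception was *Psma8*, a testis-restricted alpha subunit, whose probe passed on 4 arrays in the RA channel and on 2 in the vehicle channel. Annotated pseudogene copies exist for 15 of the 35 genes, up to 7 for a gene, and whether their transcripts bind the same probes was not tested.

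**Figure D1:**
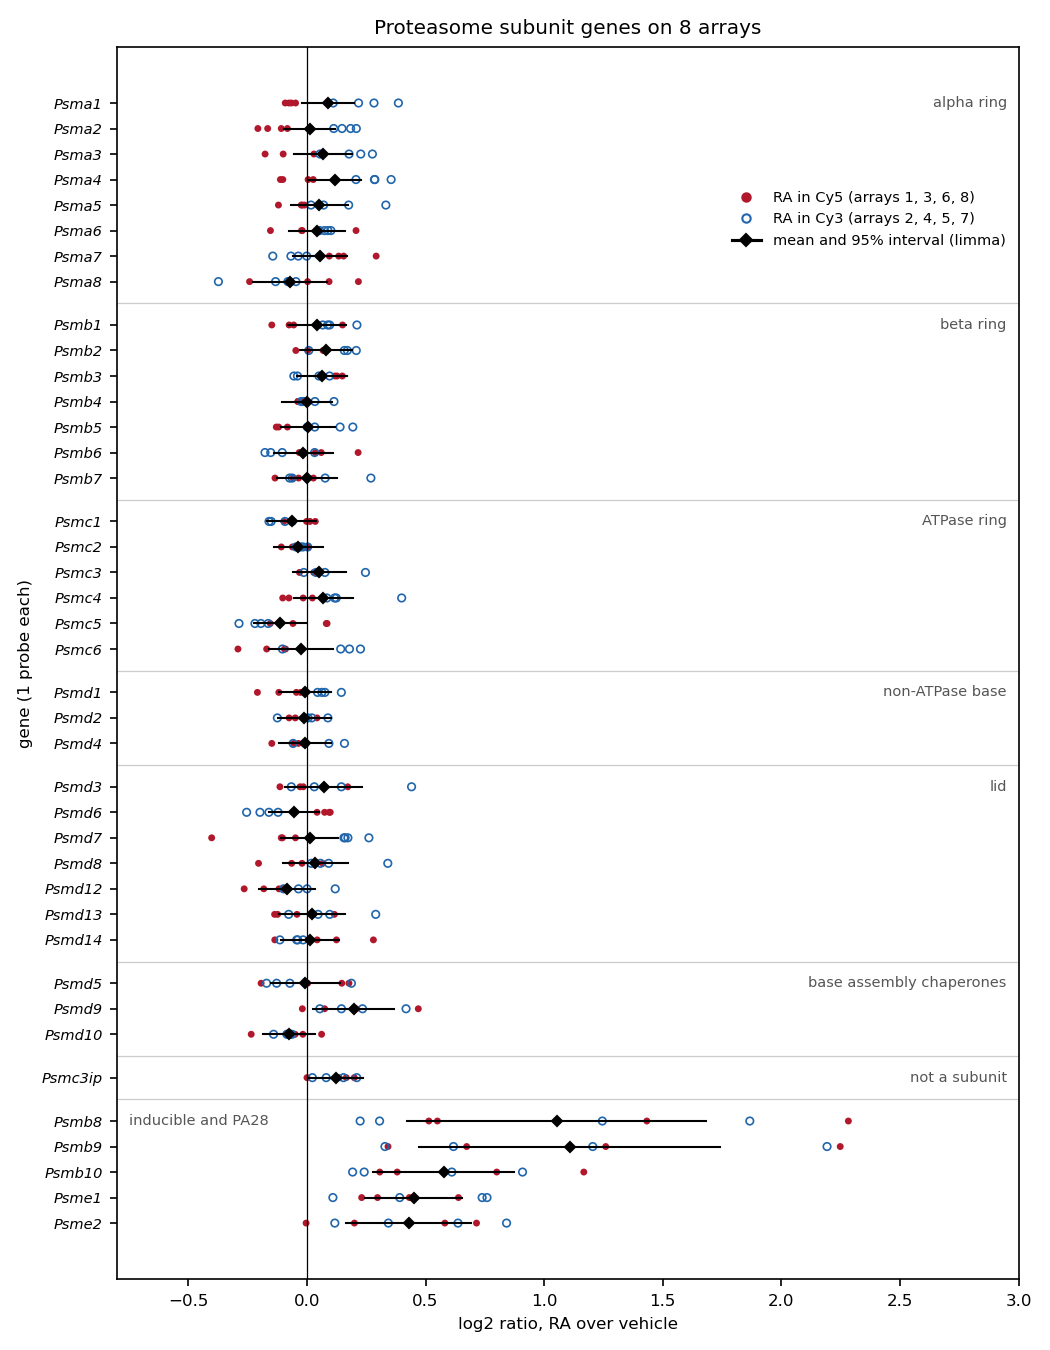
Log2 ratio of RA over vehicle (x axis) for the 35 constitutive genes by role and for 5 inducible and PA28 genes (y axis, 1 probe per gene). Filled points are arrays with RA in Cy5, open points arrays with RA in Cy3, and diamonds with bars are means with 95% limma intervals at the pairing with the largest p. Constitutive means lie between −0.11 and 0.20, and the means of the 5 genes at the bottom between 0.43 and 1.11.

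The alpha ring, whose 8 genes encode the outer rings of the barrel, had a median of 0.053, with 7 of 8 means above 0. *Psma4* was highest in the core. Its ratio was −0.10, 0.28, 0.0046, 0.35, 0.29, −0.11, 0.21 and 0.026 on arrays 1 to 8. It was thus high on the 4 arrays with RA in Cy3 and near or below 0 on the others, without overlap. The mean of *Psma4* was 0.12 (SE 0.047, adjusted p = 0.426). *Psma1* showed the same split, being 0.11, 0.28, 0.39 and 0.22 on arrays 2, 4, 5 and 7 with RA in Cy3 and −0.048, −0.066, −0.092 and −0.076 on arrays 1, 3, 6 and 8 with RA in Cy5. Its mean was 0.089 (SE 0.046, adjusted p = 0.557). The other 6 alpha genes had means from −0.070 (*Psma8*) to 0.068 (*Psma3*), none of them past an unadjusted p of 0.05.

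The beta ring had a median of 0.0045 over 7 genes. Its highest member was *Psmb2*, a structural subunit without proteolytic activity, with 0.0036, 0.0074, −0.047, 0.17, 0.21, 0.075, 0.16 and 0.068 on arrays 1 to 8. It was above 0 on 7 of 8 arrays, with a mean of 0.080 (SE 0.047, adjusted p = 0.620). *Psmb4*, another structural subunit, varied least, between −0.038 and 0.11. Its arrays 1 to 8 gave −0.0022, 0.033, −0.038, −0.025, −0.014, −0.023, 0.11 and −0.038, around a mean of 0.00083 (SE 0.045, adjusted p = 0.997). *Psmb1* and *Psmb3* had means of 0.041 and 0.063.

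The catalytic subunits lay at 0. *Psmb5*, which carries the chymotrypsin-like activity, was 0.0010, 0.19, −0.082, 0.033, 0.0015, −0.12, 0.14 and −0.13 on arrays 1 to 8. *Psmb6*, which carries the caspase-like activity, was 0.060, −0.10, 0.035, −0.15, −0.18, 0.22, 0.032 and −0.033. *Psmb7*, which carries the trypsin-like activity, was 0.027, 0.076, −0.13, −0.073, −0.062, −0.036, 0.27 and −0.059. Each was above 0 on some arrays and below 0 on others. The means were 0.0045 for *Psmb5* (95% interval −0.11 to 0.12, adjusted p = 0.990), −0.016 for *Psmb6* (−0.14 to 0.11, adjusted p = 0.958) and 0.00093 for *Psmb7* (−0.13 to 0.13, adjusted p = 0.998).

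The ATPase ring of the base, encoded by *Psmc1* to *Psmc6*, had a median of −0.032, with 2 of 6 means above 0. *Psmc5* was the lowest of the 35 genes. Its arrays 1 to 8 gave −0.15, −0.19, 0.081, −0.16, −0.22, 0.085, −0.29 and −0.059, below 0 on 6 arrays. The mean of *Psmc5* was −0.11 (SE 0.048, adjusted p = 0.445), and all 4 arrays with RA in Cy3 lay below the 4 with RA in Cy5. *Psmc4* went the other way, with −0.10, 0.084, −0.076, 0.12, 0.12, 0.023, 0.40 and −0.016 on arrays 1 to 8. Its highest value came from array 7, and its mean was 0.069 (SE 0.053, adjusted p = 0.734). The other 4 ATPase genes had means between −0.065 (*Psmc1*) and 0.053 (*Psmc3*).

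The remaining base subunits *Psmd1*, *Psmd2* and *Psmd4*, of which *Psmd4* is a ubiquitin receptor, had means between −0.012 and −0.0082. The 7 measured lid genes had a median of 0.012. *Psmd12* was the lowest lid gene, with −0.18, −0.036, −0.10, 0.12, 0.00027, −0.26, −0.10 and −0.12 on arrays 1 to 8 and a mean of −0.085 (SE 0.050, adjusted p = 0.620). *Psmd3* was the highest, with −0.11, 0.031, −0.016, −0.066, 0.14, 0.17, 0.44 and −0.029 and a mean of 0.070 (SE 0.069, adjusted p = 0.799). In *Psmd3* 4 arrays lay above 0 and 4 below, and array 7 was the highest. The other 5 lid genes, among them *Psmd14*, which encodes the deubiquitinating enzyme of the lid, had means between −0.053 (*Psmd6*) and 0.035 (*Psmd8*).

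The largest ratio of the family belonged to *Psmd9*, which encodes a chaperone of base assembly and is no part of the finished proteasome. Its ratio was −0.020, 0.054, 0.074 and 0.15 on arrays 1 to 4 and 0.23, 0.47, 0.42 and 0.21 on arrays 5 to 8. The arrays of the second slide row were all above those of the first, with means of 0.33 and 0.063. The mean of *Psmd9* was 0.20 (1.15-fold, SE 0.073, adjusted p = 0.394). In 16 of the 24 possible pairings of the arrays its p in limma was under 0.01, but not in the pairing with the fewest probes called. Which of the pairings, if any, matches shared RNA is not known, so this count does not decide whether *Psmd9* differed. A further probe of *Psmd9* gave 0.015 (SE 0.067, adjusted p = 0.969), with values from −0.22 to 0.35, so the probes of this gene disagreed. Without arrays 6 and 7, which stood apart in choroid plexus markers, the mean was 0.12. The medians of microglia and macrophage markers and of reactive astrocyte markers had the same order of the slide rows. The part of these markers in the ratio of *Psmd9* was not tested. The chaperone *Psmd10* was 0.061, −0.072, −0.018, −0.085, −0.064, −0.050, −0.14 and −0.24 on arrays 1 to 8, below 0 on 7 arrays with a mean of −0.075 (SE 0.047, adjusted p = 0.642). *Psmd5* had a mean of −0.0064.

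Core and regulatory particle were then set side by side. The core median was 0.041, with 13 of 15 means above 0, and the regulatory particle median was −0.0082, with 8 of 19 above 0. Of all named genes 47.6% were above 0, and 47.4% of those with clear signal. Within the core, the median was 0.053 in the alpha ring and 0.0045 in the beta ring. Within the regulatory particle it was −0.032 in the ATPase ring, −0.0090 in the other base subunits and 0.012 in the lid. The beta ring thus lay below the lid. The core means above 0 include *Psmb4*, *Psmb5* and *Psmb7*, none of them above 0.0045. The difference between the core and regulatory particle medians was 0.049. By array it was 0.10, 0.082, −0.039, 0.049, 0.040, 0.055, 0.14 and 0.0093 for arrays 1 to 8, hence above 0 on 7 of 8 arrays, with array 3 as the exception. Without *Psma8* and the chaperones it was 0.055, again above 0 on 7 arrays, and without arrays 6 and 7 the difference over all core and regulatory particle genes was 0.020. The difference was about as large as its own SD between arrays (0.054), and the genes were sorted by particle with earlier results known, so it stands as a description. The count of core genes above 0 depended on the scaling. It was 9 of 15 with quantile scaling between channels and with the log ratio of Agilent's software, and 6 of 15 on the arrays with RA in Cy5 alone. The median of all named genes was −0.020 with quantile scaling, −0.031 with Agilent's ratio and 0.0032 with RA in Cy5 alone. The core median was 0.016, 0.036 and −0.033 in the same order.

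**Figure D2:**
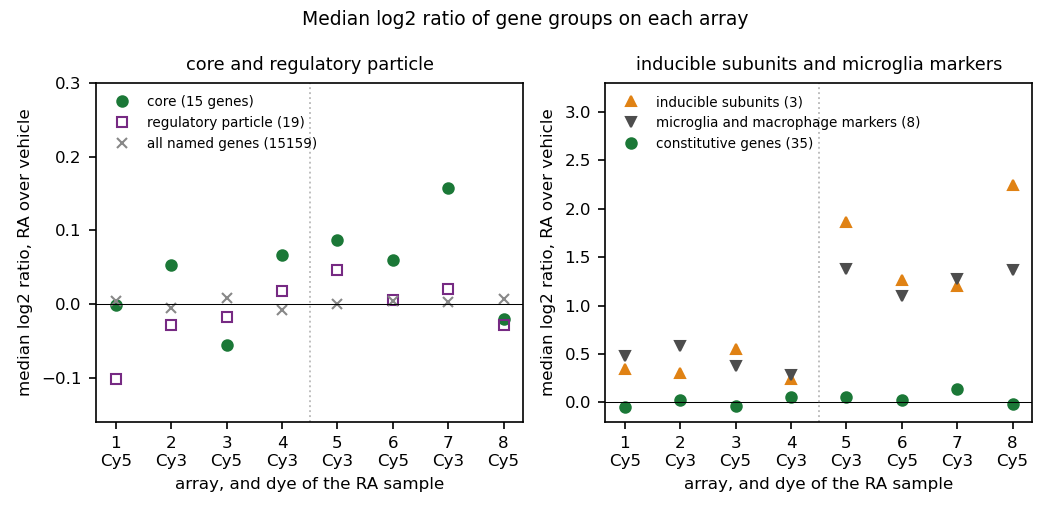
Median log2 ratio of RA over vehicle (y axes) on each array (x axes, with the dye of the RA sample), for core, regulatory particle and all named genes on the left and for inducible subunits, microglia and macrophage markers and the 35 constitutive genes on the right, where the dotted line separates the slide rows. The core lies above the regulatory particle on 7 of 8 arrays, and the inducible subunits lie between 0.24 and 0.55 in the first row and between 1.20 and 2.25 in the second.

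The ratios of many of these genes differed between the dye orders. The median over the 35 genes was −0.033 on the arrays with RA in Cy5 and 0.082 on those with RA in Cy3. In 11 of 35 genes (31.4%) the dye orders did not overlap, compared with 16.2% of all named genes and 15.7% of those with clear signal. Of the 11, 8 were higher with RA in Cy3. *Psmd7*, a lid subunit, had a mean of −0.17 where RA carried Cy5 and of 0.19 where it carried Cy3, and *Psma1* had means of −0.071 and 0.25 in the same order. The reverse held for *Psma7* (0.17 and −0.063) and *Psmd6* (0.077 and −0.18). In 22 of 35 genes (62.9%) the dye effect, taken as the difference between the dye orders divided by 2, was larger than the mean ratio of RA over vehicle, which held for 52.2% of all named genes and 45.8% of those with clear signal. The dye effect cancels only because each dye order has 4 arrays. *Psmd9* (0.18 and 0.21) and *Psmc3ip* (0.13 and 0.12) had similar means in both dye orders. *Psmc3ip* was 0.17, 0.023, −0.000070, 0.15, 0.081, 0.20, 0.21 and 0.14 on arrays 1 to 8, with a mean of 0.12 (SE 0.049, adjusted p = 0.443).

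**Figure D3:**
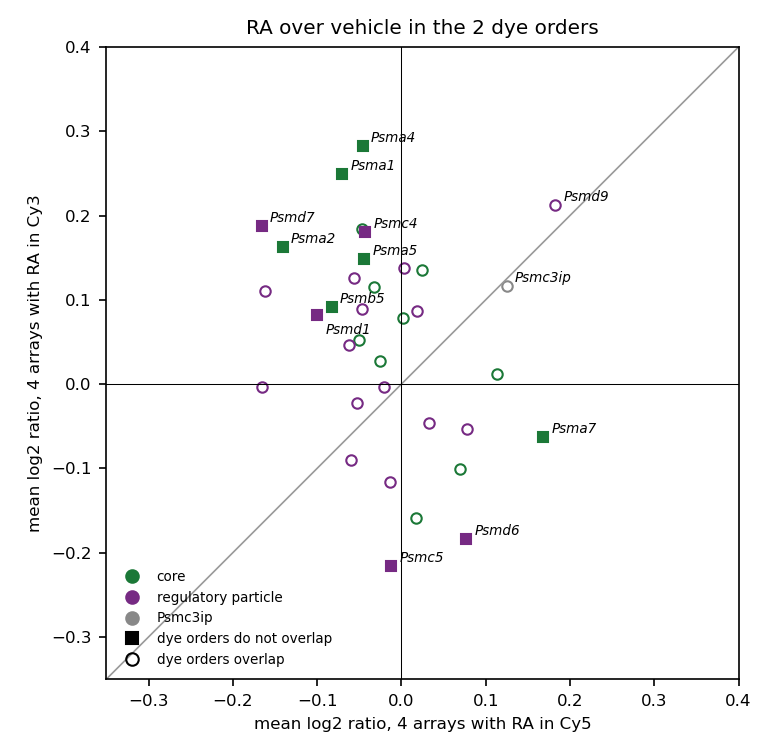
Mean log2 ratio of RA over vehicle per gene on the 4 arrays with RA in Cy5 (x axis) and on the 4 with RA in Cy3 (y axis), with colours for core, regulatory particle and *Psmc3ip* and a grey line of equality. Filled squares are the 11 genes whose dye orders do not overlap, and all of them but *Psmc5* have means on opposite sides of 0 in the dye orders.

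The inducible counterparts of the catalytic subunits were called higher in RA-injected rats. *Psmb8* was 0.51, 0.31, 0.55 and 0.22 on arrays 1 to 4 and 1.87, 1.43, 1.24 and 2.28 on arrays 5 to 8, above 0 on all 8 arrays and higher in the second slide row. Its mean was 1.05 (2.07-fold, SE 0.27, adjusted p = 0.281). *Psmb9* had a mean of 1.11 (2.16-fold, SE 0.27, adjusted p = 0.270) and *Psmb10* of 0.58 (1.49-fold, SE 0.13, adjusted p = 0.261). Thus 3 of 3 were called higher at an unadjusted p under 0.01 in limma, against 3.52% of all named genes. Within each array, *Psmb8* exceeded *Psmb5* by 0.11 to 2.41 (mean difference 1.05), *Psmb9* exceeded *Psmb6* by 0.28 to 2.37 (1.12) and *Psmb10* exceeded *Psmb7* by 0.12 to 1.23 (0.57). Each of these differences was above 0 on 8 of 8 arrays and gave p = 0.125 in an exact two-sided sign-flip test of 4 pairs of arrays, the smallest p that this design allows. The medians of the microglia and macrophage markers and of the reactive astrocyte markers given above were likewise higher in the second slide row. *Cx3cr1* went the other way, with a mean of 0.16 in the first row and 0.012 in the second. *Vim* on arrays 5 and 8 was 0.16 and 0.23, below its values in the first row. The part of these markers in the ratios of the inducible subunits was not tested. The differences compare changes and not levels, since signals of different probes cannot be compared. The rise of the inducible subunits had been seen in earlier results of these data and is given only for contrast.

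**Figure D4:**
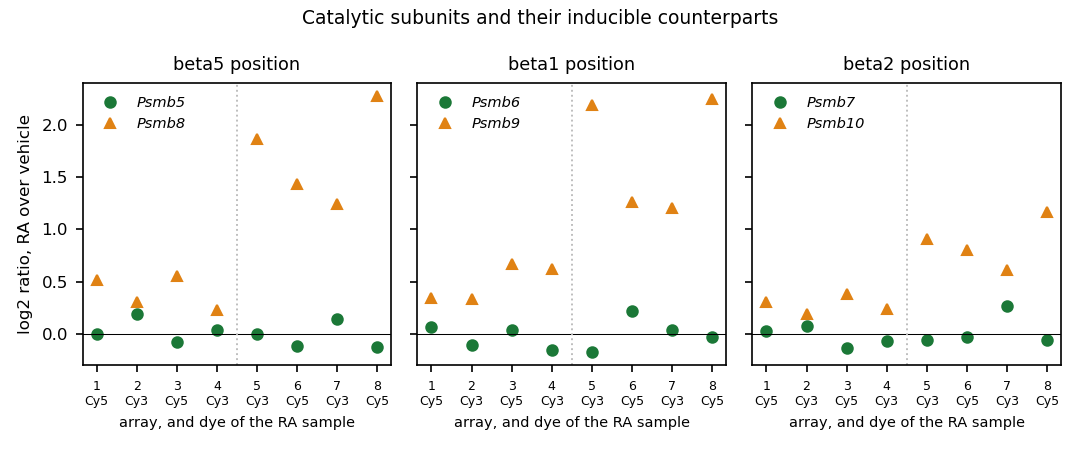
Log2 ratio of RA over vehicle (y axis) on each array (x axis, with the dye of the RA sample) for the constitutive subunit (circles) and the inducible subunit (triangles) of each catalytic position, the dotted line separating the slide rows. The inducible subunit lies above its counterpart on all 8 arrays at each position.

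Other genes of the pathway were counted in lists. Of all named genes, 3.52% were called higher and 0.792% lower. Of the activators and the inhibitor, 2 of 5 were called higher and none lower. These were *Psme1* with 0.45 (SE 0.087, adjusted p = 0.227) and *Psme2* with 0.43 (SE 0.11, adjusted p = 0.287), which encode the PA28 activator, also known to be induced by interferon. *Psme1* was above 0 on all 8 arrays and *Psme2* on 7. *Psme3*, which encodes the nuclear relative of PA28, had a mean of 0.067 (adjusted p = 0.682). *Psme4*, which encodes another activator, had a mean of 0.14 (adjusted p = 0.353) with 0.43 on the arrays with RA in Cy5 and −0.15 on those with RA in Cy3, and the inhibitor *Psmf1* had −0.015. Among core assembly chaperones 0 of 3 with a probe (5 listed) were called, including *Pomp* at 0.073. Among associated subunits and enzymes 0 of 3 with a probe (7 listed) were called, among ubiquitin and E1 genes 0 of 6, and among shuttle and unfolding factors 0 of 8. At an unadjusted p under 0.05 the counts in these lists were also 0.

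Of 6 genes for transcription and activation of subunit genes, 1 was called higher and none lower, against 3.52% and 0.792% of named genes. *Nfe2l2*, which encodes the NRF2 factor of the antioxidant response, was 0.074, 0.032, 0.13, 0.24, 0.36, 0.28, 0.22 and 0.29 on arrays 1 to 8, above 0 on all of them. Its mean was 0.20 (SE 0.057, adjusted p = 0.300). *Nfe2l1*, which encodes the factor best known for raising constitutive subunit genes, had a mean of −0.10 (SE 0.058, adjusted p = 0.593) and was below 0 on 6 of 8 arrays. No relation between these factors and the motif matches above was tested.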

How the data were processed

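RNA of hypothalamic blocks was measured on 8 arrays of 1 slide, as described above. The authors deposited the intensity of each spot in both channels on a linear scale before normalisation, with the log10 ratio that Agilent's software gave (Cy5 over Cy3), and a table of normalised log2 ratios whose background correction is not stated (correlation with uncorrected values here 0.985 to 1.00 per array). Their methods and notes name limma, with loess.

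Here, R 4.3.3 and limma 3.58.1 were used. Median signals were corrected by normexp (offset 50), control and outlier-flagged spots were left out, loess was applied within arrays, spots of a probe were averaged and ratios were turned to RA over vehicle. Each of 30367 probes was fitted on the means of 4 pairs of arrays with opposite dyes. The fit was repeated for all 24 pairings and the largest p of each probe was taken, with Benjamini-Hochberg adjustment over all probes. A gene was called at an unadjusted p under 0.01, the methods' threshold. The test was also run on simulated data with independent probes and without dye or slide-row effects. Such data do not show how the test behaves where these effects are present. A probe counted as well above background where at least 0.5 of its spots carried Agilent's mark, which held for 57.4% to 74.6% of probes per array and channel. The number of arrays limits the precision.

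Accessions were matched to RefSeq genes of GRCr8, naming 59.3% of probes. The brightest probe stood for a gene. The members and lists were chosen with earlier results of these data known. Values on all arrays were given for members past the threshold (there were none), for the 3 largest and 3 smallest means in each particle among probes well above background, and for the catalytic subunits. *Psmc3ip*, *Psmb8* and *Nfe2l2* were added after their values were seen. No protein sequences were used here. Alternatives covered background, scaling, source of ratios, probe filters, pairing, dye order, slide row, variance model and arrays left out. Quantile scaling between channels was added after seeing the data.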

Additional observations from a re-analysis of the deposited data

Results flagged for a closer look

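Among 84 groups of 4 arrays with the same dye order, for the 35 genes and medians over them, 4 held a value whose gap to its neighbour took up most of the range of the group. Chance flags about 1 in 20 groups, which is 4.2 of 84.

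In *Psma5*, array 3 gave −0.12 among the arrays with RA in Cy5, the next being −0.024. In *Psmc4*, array 7 gave 0.40 among the arrays with RA in Cy3, the next being 0.12. In *Psmd7*, array 6 gave −0.40 among the arrays with RA in Cy5, the next being −0.11, and array 4 gave 0.26 among those with RA in Cy3, the next being 0.17.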

How the results depend on the processing

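The number of probes called at an unadjusted p under 0.01 was 988. It was 244 with plain background subtraction, 330 with Agilent's log ratio, 3142 in the pairing with the most calls, 1722 with a random block of array pairs, 2481 with 8 independent arrays, 3111 with slide row as a block, 2161 with only RA in Cy5 and 2317 with only RA in Cy3. When 1 array of each dye order was left out, it ranged from 455 (without arrays 8 and 5) to 1111, and it was 533 without arrays 6 and 5, 603 without arrays 6 and 7 and 541 without arrays 8 and 7.

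The number of proteasome genes called higher was 0 of 35. It became 1 (*Psmd9*) in the pairing with the most calls and with the random block, and 2 (*Psma4* and *Psmd9*) with 8 independent arrays and with slide row as a block. With only RA in Cy3 it was 2 (*Psma1* and *Psma4*), and 1 gene (*Psmc5*) was called lower. The cause was not tested. With arrays left out it was 0 in both directions each time.

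The median of the 35 genes (0.011) was 0.082 with only RA in Cy3 and −0.033 with only RA in Cy5, and −0.0052 to 0.030 with arrays left out. The difference between core and regulatory particle medians (0.049) stayed above 0 in all 36 alternatives, but not all of these could change it. Other pairings, blocks, independent arrays and the variance trend alter only p-values, so the difference stayed at 0.049, as it did with Aquantile. The alternatives with arrays left out share most of their arrays, so the 36 are not independent checks. The difference ranged from 0.011 with only RA in Cy5 to 0.095 in slide row 2 alone, and was 0.020 to 0.067 with arrays left out. *Psmd9* ranged from 0.063 (slide row 1 alone) to 0.33 (slide row 2 alone), and was 0.11 as the mean over its probes, where its p was no longer under 0.05. Aquantile left the log ratios as they were. The replicate numbers of the labels were not used as a block, because no number is shared between the dye orders.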
